A study of Mus musculus with 21 samples.

Results

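Transcript levels in NeuN-sorted neuronal nuclei from the cortex of Scn2a+/- mice (Het) were compared with those of wild-type mice (WT) by polyA RNA sequencing. The comparison takes 3 Het and 3 WT libraries, 6 of the 21 samples of the series, chosen by the genotype in the labels, and covers 18967 genes tested of 39008 features listed. Both groups were on a C57BL/6J background, and nuclei came from 200 mg of cortex sorted for NeuN, the neuronal nuclear protein encoded by Rbfox3. The labels give no treatment for WT or Het, and do not say whether these mice were injected, how old they were, which allele of Scn2a was disrupted and how, or whether 1 library stands for 1 mouse. The p-values therefore measure the spread between these libraries, which may be technical in part. A further 3 libraries (Het CRISPRa) came from Scn2a+/- mice that received 500 nL of rAAV carrying sadCas9-VP64 and an Scn2a guide RNA into the medial prefrontal cortex 4 weeks before use. They entered the fit to estimate the spread between libraries, and their levels are given beside those of WT and Het where they help to place a value. The other 12 samples are Neuro2a cultures and were not used here.

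Scn2a encodes Nav1.2, a pore-forming alpha subunit of the voltage-gated sodium channels that open during an action potential. In cortical excitatory neurons Nav1.2 sits at the axon initial segment early in life, and later mainly in the proximal initial segment and the dendrites, while Nav1.6 (Scn8a) takes over much of the axon. Loss of an SCN2A copy in people is a known cause of autism and intellectual disability, and Scn2a+/- mice serve as a model of it. The comparison asks which transcripts of cortical neurons differ when an Scn2a copy is lost.

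Levels are counts per 1000000 reads (CPM). Differences are Het minus WT in log2(CPM + 0.5), each followed by its SE from limma, and this scale understates the difference of genes with few reads. CPM carries no correction for transcript length, so levels are compared between libraries and not between genes. Adjusted p-values are two-sided, from limma, adjusted by the Benjamini-Hochberg method for the 18967 genes, and 0.05 is the threshold. With 3 against 3 libraries the exact permutation test cannot give a p below 0.1, so non-overlap of the groups is given as a count. A gene with no difference between the groups would show non-overlap, in either direction, with that same probability of 0.1.

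The libraries held 15.5 to 20.1 M reads (M, 1e+06), with no separation of the groups by depth. The deposited values of WT and Het did differ in their sparse end. Features standing at 1 read numbered 3142, 2886 and 3062 in WT and 2022, 2046 and 1266 in Het, so that all Het libraries were below all WT libraries. Mitochondrially encoded genes took 1.06, 1.23 and 0.773% of CPM in WT and 1.88, 1.41 and 0.892% in Het, with overlap. The first principal component of the 9 mouse libraries, 33.9% of the variance, ran from -53.1 in Het replicate 1 to 35.5 in WT replicate 3. Replicate 3 of WT and Het lay on the positive side of it (35.5 and 23.0) and the other 4 WT and Het libraries on the negative side. The labels number the libraries 9, 11 and 16 for WT and 7, 8 and 17 for Het without saying what the numbers stand for, and replicate 3 of both groups carries the higher numbers. The Het CRISPRa libraries, numbered 10, 12 and 15, scored 10.2, 23.5 and -0.86 on the component. Over all the mouse libraries the positive side therefore did not go with the higher numbers. Xist was at 3248 to 4066 CPM and Uty at 0 in all 6 libraries. The transgene features sadCas9Vp64 and McherryPuro were at 0 in all 6 as well.

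**Figure D1:**
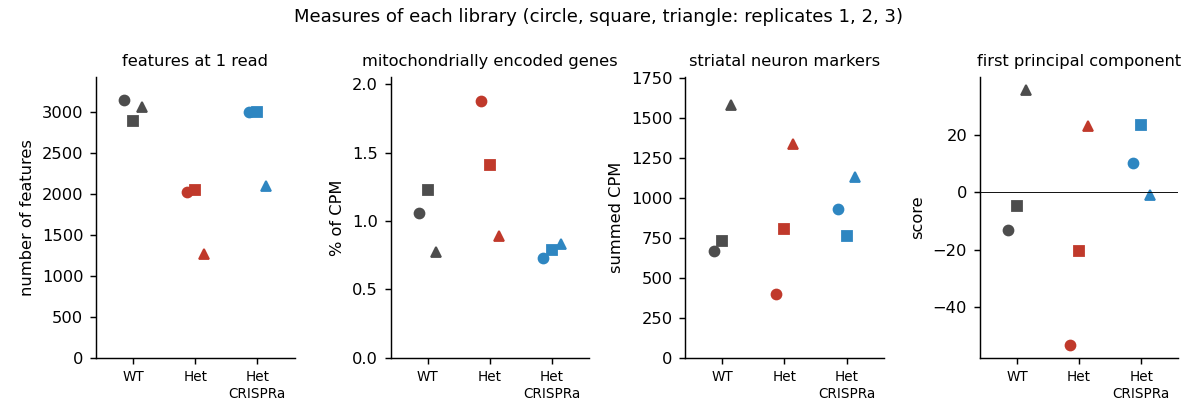
Measures of the 9 mouse libraries by group: the number of features at 1 read, the percent of CPM in mitochondrially encoded genes, the summed CPM of 17 striatal neuron markers and the score on the first principal component. Each point is 1 library. The 3 Het libraries lie below the 3 WT libraries in features at 1 read, and replicate 3 of WT and Het lies above the other 2 of its group in striatal markers and in the component score.

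Scn2a (ENSMUSG00000075318) itself differed little. It stood at 229.5, 255.4 and 266.0 CPM in WT and 203.3, 225.5 and 260.3 CPM in Het, with 257.7, 291.3 and 265.0 CPM in Het CRISPRa. The groups overlapped, since Het replicate 3 lay above WT replicates 1 and 2, and the lowest library of all was Het replicate 1. Between 3430 and 5232 reads stood behind each of these 6 values, so counting error is small against the spread between libraries. The 95% interval of the difference, -0.36 to 0.10, excludes a 2-fold fall. In the authors' deposited table the difference, turned to Het minus WT, was -0.08 ± 0.13 (SE). The gene-level value does not tell the alleles apart, and the labels do not say which part of the gene was changed, so it is no check on the genotype labels. WT and Het are used below for the libraries so labelled.

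None of the 12 tested sodium channel subunit genes passed (of 13 listed, Scn4a was too low to test), against 0% of all genes. The median difference of the 12 was -0.14, beside -0.05 for all genes tested. Leaving out Het replicate 3 or WT replicate 1 gave -0.31 and -0.25, and leaving out WT replicate 3 or Het replicate 1 gave -0.09 and -0.07. It was -0.34 with the number of features at 1 read as a covariate. The beta subunit genes Scn2b, Scn3b and Scn4b had lower Het means with overlap. Scn2b was at 53.6, 61.9 and 69.4 CPM in WT and 39.6, 48.8 and 58.1 CPM in Het (-0.34 ± 0.17). Scn3b was at 103.9, 108.3 and 160.1 CPM in WT and 69.2, 94.0 and 117.5 CPM in Het (-0.41 ± 0.24). Scn4b was at 37.8, 41.2 and 99.6 CPM in WT and 11.9, 33.5 and 48.1 CPM in Het (-0.99 ± 0.44). Het replicate 1 was the lowest library for these 3 genes, and WT replicate 3 the highest. Without Het replicate 1 the differences were -0.20 for Scn2b, -0.21 for Scn3b and -0.42 for Scn4b, and without WT replicate 3 they were -0.25, -0.21 and -0.55. Without Het replicate 3 they were -0.48, -0.59 and -1.40.

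Scn4b is abundant in striatal projection neurons, and its lowest library and its 2 highest were the same as for the 17 striatal markers, whose summed level was 670.6, 727.8 and 1580.0 CPM in WT and 401.8, 806.0 and 1337.7 CPM in Het. The part of that in the Scn4b values was not tested. Among the alpha subunits, Scn8a (Nav1.6) was at 754.5, 792.1 and 674.7 CPM in WT and 731.9, 726.2 and 747.3 CPM in Het, a difference of -0.01 ± 0.09. Scn1a (Nav1.1, the channel of many interneurons) was at 292.8, 307.9 and 373.8 CPM in WT and 316.4, 318.2 and 328.6 CPM in Het (-0.01 ± 0.10). Scn3a (Nav1.3, mainly an embryonic channel) was at 127.1, 125.3 and 166.8 CPM in WT and 134.5, 132.7 and 159.0 CPM in Het (0.03 ± 0.12). For Scn8a, Scn1a, Scn3a, Scn9a, Scn10a and Scn11a the sign of the difference changed under at least 1 alternative. Their 95% intervals include 0, so none of them showed a rise in Het that could be told from the spread. Scn9a, Scn10a and Scn11a stood at -0.04, 0.02 and -0.20.

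**Figure D2:**
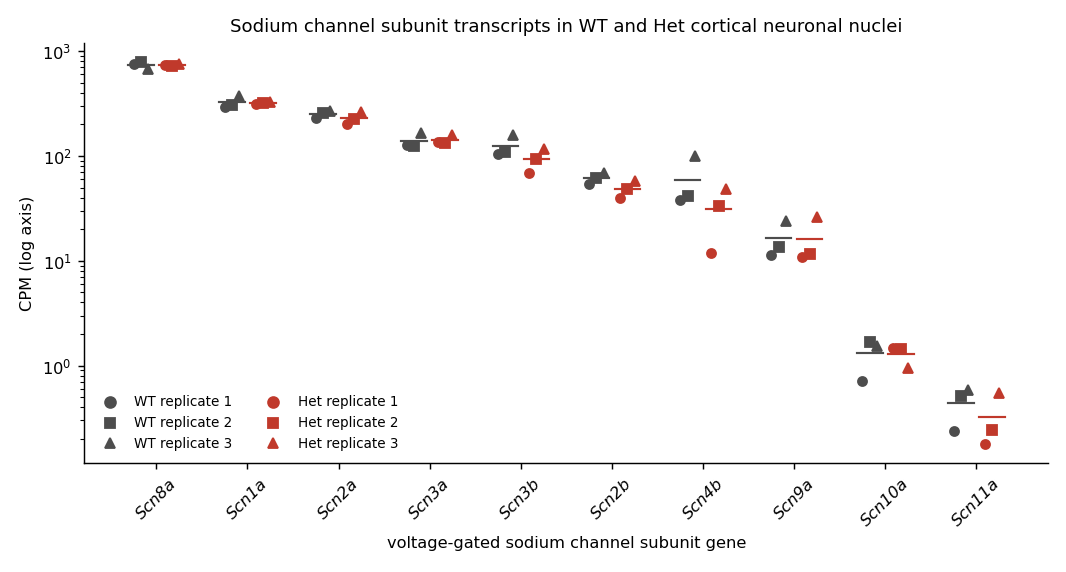
CPM of 10 voltage-gated sodium channel subunit genes on a log axis. Each point is 1 library, shape gives the replicate and bars are group means (n = 3 each). WT and Het overlap for each of the genes drawn, and Het replicate 1 is the lowest library for Scn2a, Scn2b, Scn3b and Scn4b.

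The genes that flank Scn2a on chromosome 2 were looked at as a group. None of the 22 tested passed, and 2 had lower Het libraries without overlap, with 0 higher. Kcnh7, a potassium channel gene of the ERG family, was at 101.2, 93.9 and 111.5 CPM in WT and 66.7, 91.2 and 92.0 CPM in Het (-0.31 ± 0.13). Dpp4, a peptidase gene, gave -0.24. The nearest neighbours in annotated order, Scn3a and Csrnp3, gave 0.03 and -0.24. Grb14, an adaptor of insulin receptor signalling, was at 40.9, 37.2 and 21.5 CPM in WT and 61.4, 44.4 and 32.0 CPM in Het, with overlap (0.46 ± 0.25). Over the 100 tested genes nearest to Scn2a, 50 on each side in the order of GENCODE M21 (GRCm38), 1 was higher and 11 were lower without overlap, 1 and 11% against 3.37 and 7.3% of all genes, and after median-of-ratios scaling (each library divided by the median ratio of its genes to their mean) 3 and 7% against 5.3 and 5.06%.

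Across the transcriptome no gene passed the test (0 of 18967, 0%), and the smallest adjusted p was 0.333 by limma. An unadjusted p under 0.05 was reached by 951 genes, 5.01% of those tested, 308 higher (1.62%) and 643 lower (3.39%) in Het. The 3 Het libraries did not overlap the 3 WT libraries in 2025 genes (10.7%), 640 higher (3.37%) and 1385 lower (7.3%). Both directions together, this share is near the probability of 0.1 for a gene with no difference. That excess of lower genes depended on the scaling. With median-of-ratios scaling 1006 (5.3%) were higher and 960 (5.06%) lower, and with quantile scaling 911 and 922, so the share of higher genes moved from 31.6 to 51.2 and 49.7%. The median difference of all genes moved from -0.05 to -0.01 with median-of-ratios scaling.

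The spread between libraries set what could have been seen. The median SE of a difference was 0.20, 0.33 for genes at a mean of 2 CPM or less and 0.11 above 100 CPM. The 95% interval lay inside a 2-fold change either way for 15547 genes (82.0%), and inside a 1.5-fold change for 8924 (47.1%). A difference of 2-fold or more was measured in 124 genes (0.654%), none of which passed. The count of 0 did not hold under every alternative. With limma's arrayWeights, which gives Het replicate 2 a weight of 6.23 and Het replicate 3 a weight of 0.328, 2192 genes passed (734 higher, 1458 lower), and with its gene-by-gene method 411 did (134 higher, 277 lower). Within the 6 mouse libraries numbered up to 12, 2 per group, 5 passed, all higher in Het: Gm37999, Gm49686, Pak5, mt-Atp6 and mt-Co3. With the library number as a term only Gm37999 passed, and the libraries numbered 15 and above hold 1 library a group and give no test.

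**Figure D3:**
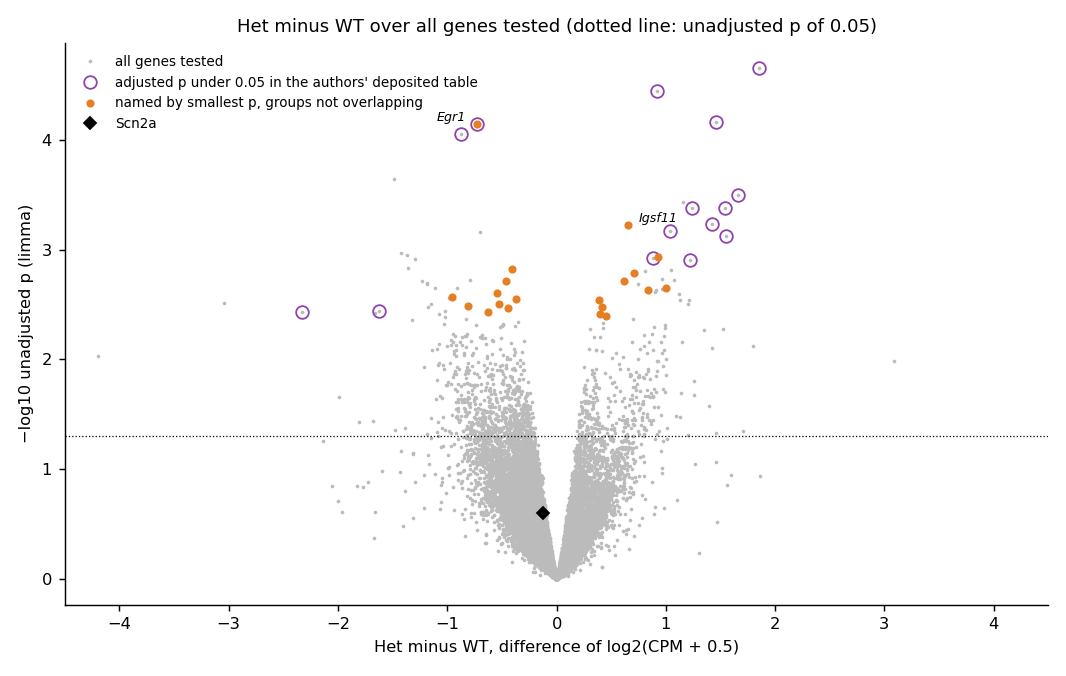
Difference of log2(CPM + 0.5), Het minus WT, against the unadjusted p of limma (as −log10) for the 18967 genes tested. Purple rings are the 15 genes past 0.05 in the authors' deposited table, orange points the 20 named genes with the smallest p and groups that do not overlap, and the black diamond is Scn2a. None of the points passed by limma after adjustment over all genes.

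The authors' deposited table, made with DESeq2 per its columns and the submitters' processing notes, gives an adjusted p for 23177 genes, and 15 of these were under 0.05 (0.0647%), 11 higher (0.0475%) and 4 lower (0.0173%) in Het. In all 15 the WT and Het libraries did not overlap and the limma unadjusted p was under 0.05. The 15 were called from these same libraries, so this is no separate support. Most are not established genes. Of the 11 higher ones, 8 lie inside a gene of the same strand in GENCODE M21, and 7 are of its TEC class, loci with transcript evidence that still await an experimental test. Reads from such a locus and from the unspliced transcript of the gene around it cannot be told apart at the gene level, so their levels are uncertain.

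Gm37999 (ENSMUSG00000103482), inside Khdrbs2, stood at 5.67, 4.41 and 2.96 CPM in WT and 21.6, 16.3 and 12.9 CPM in Het, and at 3.73, 3.91 and 2.12 CPM in Het CRISPRa. Every Het library was above every WT and Het CRISPRa library. Its difference was 1.86 ± 0.28 by limma (adjusted p = 0.333), with adjusted p from 0.000428 to 0.997 over the alternatives, and 2.01 ± 0.30 (adjusted p = 2.92e-07) in the authors' deposited table. Gm48700, inside the neurexin gene Nrxn3, was at 20.5, 18.3 and 17.3 CPM in WT, 34.8, 33.4 and 38.9 CPM in Het and 17.3, 12.6 and 14.1 CPM in Het CRISPRa. Gm49594, a processed pseudogene inside Kalrn, was at 7.68, 4.71 and 4.90 CPM in WT, 18.3, 15.7 and 15.3 CPM in Het and 4.58, 3.48 and 6.91 CPM in Het CRISPRa. A230103L15Rik, inside the imprinted host transcript Snhg14, was at 93.8, 64.8 and 54.5 CPM in WT, 198.3, 135.0 and 108.1 CPM in Het and 48.0, 45.5 and 33.7 CPM in Het CRISPRa.

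These loci were low in Het CRISPRa as well as in WT. The genes around them did not show the difference. Khdrbs2 was at -0.0010, Nrxn3 at -0.01, Kalrn at 0.04 and Snhg14 at 0.12. Gm4117, annotated as antisense and at low level, stood at 1.07, 0.608 and 0.579 CPM in WT and 3.38, 2.604 and 3.33 CPM in Het. The other higher genes of the authors' deposited table, named here after their values were seen, were 2900022M07Rik (inside Adgrb3), Gm38157 (Dst), Gm44587 (Usp29), Gm19817 (Dclk1), Gm27209 (on the strand opposite to Pou6f1) and ENSMUSG00000122934. Their limma differences ran from 0.88 for Gm19817 to 1.66 for ENSMUSG00000122934.

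The 4 lower genes of the authors' deposited table were Egr1, described below, Gm43305, Pabpc1l2b and Gm20715. Gm43305, a processed transcript, was at 21.6, 22.2 and 22.8 CPM in WT and 10.9, 12.2 and 12.5 CPM in Het, and at 20.5, 14.6 and 19.6 CPM in Het CRISPRa. The lowest WT library was well above the highest Het library. Pabpc1l2b was at 2.39, 1.11 and 4.89 CPM in WT and at 0.296, 0 and 0 CPM in Het, and Gm20715 at 1.32, 0.313 and 1.98 CPM in WT and at 0 in all 3 Het libraries. A count of 0 allows up to 3 reads, 0.149 to 0.182 CPM in these libraries, and this floor covers counting error only. Pabpc1l2b is an X-linked copy of a multi-gene family, so its reads can belong to near-identical copies.

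The TEC loci were then taken as a class, chosen after these values were seen, and the class includes the TEC loci named above. Of all 615 tested TEC loci, 44 (7.15%) were higher and 64 (10.4%) lower in Het without overlap. Of 281 tested TEC loci inside a protein-coding gene of the same strand, 34 (12.1%) were higher and 27 (9.61%) lower in Het without overlap, against 3.37 and 7.3% of all genes, and their median difference was -0.12. Of the 196 protein-coding genes around them, 3 were higher (1.53%) and 13 lower (6.63%). After median-of-ratios scaling the shares for the 281 loci were 13.2 and 8.90%. None of these loci passed by limma. All 3 Het libraries also had fewer features at 1 read than all WT libraries, and the part of that in these values was not tested.

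Among established genes, those with the smallest limma p and groups that did not overlap are given as values that did not pass (adjusted p = 0.333 for Egr1 and 0.875 for the other 19, limma). Over the alternatives 20 of these 20 passed with arrayWeights, 18 with its gene-by-gene method and 0 with any of the others. Over all 18967 genes 2192 and 411 passed with these weights, and the estimation of the first stopped before convergence. The 20 were chosen from the same data by small p, so their passing is no separate support. Igsf11 (ENSMUSG00000022790), which encodes a synaptic adhesion protein of the immunoglobulin superfamily that binds PSD-95 and AMPA receptors, led the higher ones. It was at 51.2, 44.1 and 41.4 CPM in WT, 87.2, 68.6 and 61.7 CPM in Het and 46.8, 41.7 and 37.7 CPM in Het CRISPRa. The Het mean was 1.59 times that of WT (0.65 ± 0.14). Etv4, an ETS transcription factor gene of the PEA3 group, was at 10.5, 6.38 and 6.24 CPM in WT and 13.3, 17.9 and 13.2 CPM in Het, a ratio of 1.92 (0.92 ± 0.22).

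Tpcn2, which encodes a lysosomal two-pore cation channel, was among the most even within groups. It stood at 9.48, 8.77 and 9.01 CPM in WT, 14.5, 14.4 and 13.8 CPM in Het and 9.42, 8.12 and 10.9 CPM in Het CRISPRa (0.62 ± 0.16). Mir99ahg, the host transcript of a microRNA cluster, was at 29.6, 20.1 and 14.4 CPM in WT and 56.6, 42.0 and 30.0 CPM in Het (1.00 ± 0.26), where the lowest Het library was only just above the highest WT library. Stac2, which encodes an adaptor of voltage-gated calcium channels, was at 86.8, 81.1 and 70.5 CPM in WT and 106.1, 108.6 and 96.4 CPM in Het (0.39 ± 0.10). Adam8, a metalloprotease gene, gave 0.41 ± 0.11. Pdzd7, a scaffold gene known from hearing, gave 0.40 ± 0.11, and Fbln2, which encodes the matrix protein fibulin 2, gave 0.45 ± 0.13. Nxf7, of the RNA export factor family, gave 0.83 ± 0.22. Rpl15, a ribosomal protein gene, was at 42.6, 33.8 and 28.2 CPM in WT and 67.7, 57.9 and 45.6 CPM in Het (0.71 ± 0.18), and it has processed copies in the genome, which makes its level uncertain.

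Of the lower set, Ccnd2, the cyclin D2 gene, was at 50.1, 55.1 and 57.1 CPM in WT and 41.8, 38.9 and 36.4 CPM in Het, with 45.7, 49.8 and 39.3 CPM in Het CRISPRa (-0.47 ± 0.12). Rgmb, which encodes a repulsive guidance molecule that acts as a BMP co-receptor, was at 24.9, 25.7 and 27.3 CPM in WT and 16.8, 16.2 and 19.997 CPM in Het (-0.55 ± 0.14). Ywhag, which encodes 14-3-3 gamma and is an epilepsy gene in people, was at 74.6, 82.0 and 77.1 CPM in WT and 57.3, 57.3 and 65.9 CPM in Het (-0.37 ± 0.10). In each of these every Het library was below every WT library, which was a condition of their choice.

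Slc7a14, a lysosomal transporter gene of the cationic amino acid family, gave -0.53 ± 0.15, and Stum, a mechanosensory transduction mediator homologue, gave -0.44 ± 0.12. Gramd2b, a GRAM domain gene, was at 11.1, 12.4 and 10.7 CPM in WT and 6.46, 7.93 and 7.26 CPM in Het (-0.63 ± 0.18). A pair of genes known mainly from fibroblasts and matrix stood at low levels. Islr was at 3.28, 2.69 and 2.83 CPM in WT, 2.02, 0.908 and 1.04 CPM in Het and 4.14, 3.78 and 4.01 CPM in Het CRISPRa (-0.96 ± 0.26). Postn, the periostin gene, was at 9.30, 7.4997 and 7.33 CPM in WT and 4.62, 3.45 and 5.12 CPM in Het (-0.81 ± 0.22). Rn18s-rs5 (-0.41 ± 0.10) is related to the multi-copy ribosomal RNA repeats, and its level is uncertain.

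Immediate early genes are transcribed within minutes of synaptic or electrical activity and include transcription factors, such as the Egr and Fos families, and feedback phosphatases. Of 27 tested members 0 passed, and 5 were lower and 0 higher in Het without overlap, beside 7.3 and 3.37% of all genes. Egr1 (ENSMUSG00000038418), an activity-regulated zinc finger factor, was at 90.4, 73.5 and 84.7 CPM in WT and 47.7, 44.4 and 57.5 CPM in Het. In Het CRISPRa it was at 48.9, 46.9 and 42.0 CPM. The lowest WT library (73.5 CPM) was above the highest Het library (57.5 CPM), and the Het mean was 0.601 times the WT mean. The difference was -0.73 ± 0.13 with a 95% interval of -1.005 to -0.46. It did not pass by limma (adjusted p = 0.333), with adjusted p from 0.00111 to 0.997 and differences from -0.84 to -0.61 over the 21 alternatives. It did pass in the authors' deposited table (-0.68 ± 0.15, adjusted p = 0.0217).

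The other 4 genes with separate groups, described after their values were seen, were Fos, Btg2, Dusp6 and Egr4. Fos, the founding AP-1 subunit, was at 18.6, 19.2 and 14.5 CPM in WT and 13.1, 12.0 and 9.10 CPM in Het (-0.60 ± 0.18). Btg2, an antiproliferative gene, was at 10.4, 10.8 and 13.6 CPM in WT and 6.70, 6.72 and 10.2 CPM in Het (-0.55 ± 0.21). Dusp6, the phosphatase that limits ERK signalling, was at 33.8, 33.4 and 31.2 CPM in WT and 25.5, 27.6 and 21.8 CPM in Het (-0.39 ± 0.13). Egr4 gave -0.30 ± 0.18 and its groups overlapped after median-of-ratios scaling. For Fos and Btg2 the highest Het library came close to the lowest WT library, so their separation is narrow.

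The windows before the annotated starts of Fos and Btg2 are shown because both stood lower in Het and both hold the short CREB-type motif TGACG. Since they were picked by the motif as well, its presence in them is no result. The windows of Egr1 and Egr4 were not looked at. They are 250 bases from RefSeq (GRCm38.p6), 5′ to 3′ on the gene's strand, chr12:85473640-85473889 (+) for Fos and chr1:134079156-134079405 (-) for Btg2. Capitals mark every TGACG read on either strand.
Fos: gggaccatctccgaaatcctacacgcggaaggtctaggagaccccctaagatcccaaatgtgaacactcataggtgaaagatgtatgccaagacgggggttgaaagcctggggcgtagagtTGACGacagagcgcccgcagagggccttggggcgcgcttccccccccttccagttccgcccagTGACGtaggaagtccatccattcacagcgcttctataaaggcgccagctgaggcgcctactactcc
Btg2: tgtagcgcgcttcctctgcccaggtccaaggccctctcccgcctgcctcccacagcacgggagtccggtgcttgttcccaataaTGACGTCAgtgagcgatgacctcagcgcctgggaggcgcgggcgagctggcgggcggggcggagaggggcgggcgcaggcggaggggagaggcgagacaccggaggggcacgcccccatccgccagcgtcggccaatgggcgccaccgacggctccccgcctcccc
Fos holds 2 matches and Btg2 2 that overlap on opposite strands. The motif occurs in 17.8% of all 32851 windows of that length, so a match is common. The Dusp6 window holds none, and none of the 3 windows holds a CArG box, the serum response factor motif, which 1.47% of all windows hold. Sequence outside these 250 bases was not searched, so the genes may hold such motifs elsewhere. Matches are letters in the sequence and not measured binding.

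The rest of the immediate early list did not share the order of Egr1. Arc, which encodes a dendritic capsid-like protein, was at 167.2, 119.3 and 152.6 CPM in WT and 148.8, 130.7 and 93.5 CPM in Het (-0.25 ± 0.17). Npas4, which responds to calcium entry, was at 75.5, 65.7 and 85.7 CPM in WT and 61.3, 67.7 and 69.5 CPM in Het (-0.19 ± 0.12). Nr4a1, an orphan nuclear receptor gene, was at 220.5, 217.7 and 226.0 CPM in WT and 256.0, 272.3 and 196.6 CPM in Het (0.11 ± 0.18). Fosb gave 0.01, Junb -0.22, Egr3 -0.06 and Nr4a2 0.04. The groups overlapped in all of these. The list's median was -0.06, near that of all genes. It was 0.08 within the libraries numbered up to 12, -0.16 without Het replicate 1, -0.19 without Het replicate 2 and -0.11 without WT replicate 1. The summed level was 1121, 1062 and 1154 CPM in WT and 1112, 1122.5 and 883.5 CPM in Het.

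**Figure D4:**
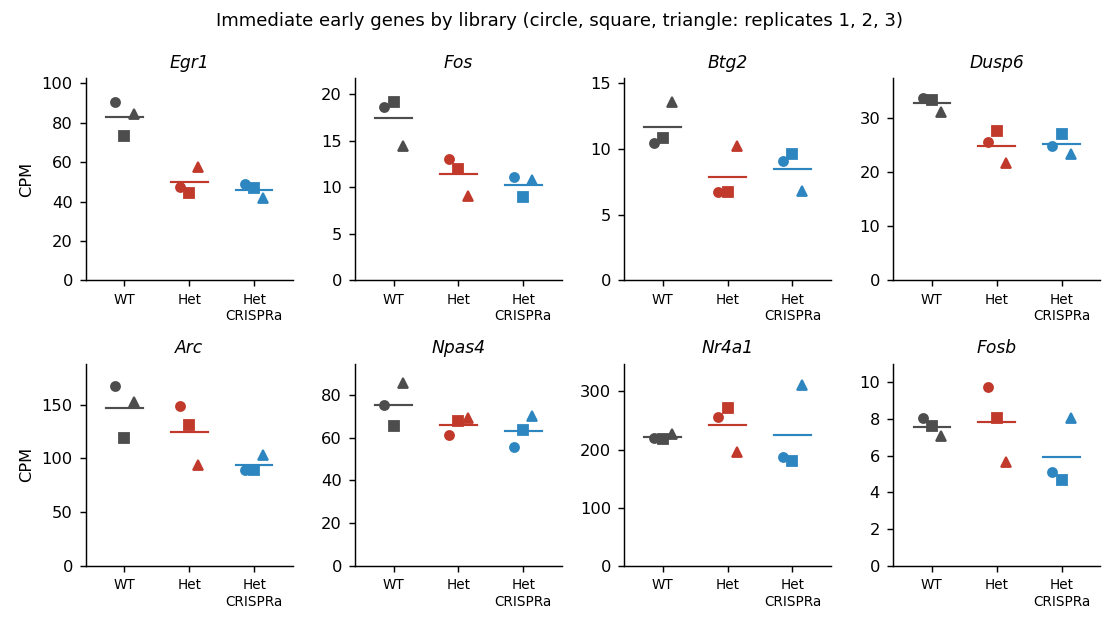
CPM of 8 immediate early genes in the 9 mouse libraries. Each point is 1 library and bars are group means (n = 3). Egr1, Fos, Btg2 and Dusp6 have every Het library below every WT library, and Arc, Npas4, Nr4a1 and Fosb overlap.

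Slower activity-linked genes, among them secreted factors and synaptic regulators, had 0 of 23 past the test and a median of 0.04. Without overlap 1 was higher and 1 lower, beside 3.37 and 7.3% of all genes. After median-of-ratios scaling 1 was higher and 0 lower, beside 5.3 and 5.06%. Inhba, which encodes the activin A subunit, was at 18.4, 18.1 and 19.2 CPM in WT and 29.8, 21.3 and 22.8 CPM in Het (0.38 ± 0.16), the 1 member higher without overlap. Rgs4, a regulator of G protein signalling, was at 52.1, 57.3 and 62.5 CPM in WT and 35.2, 43.2 and 51.7 CPM in Het, and was the 1 member lower (-0.41 ± 0.15), by a narrow gap. Bdnf, the growth factor gene, was at 9.96, 11.4 and 11.1 CPM in WT and 14.3, 15.9 and 8.33 CPM in Het, and Homer1 at 111.8, 105.5 and 134.2 CPM in WT and 131.8, 159.3 and 88.8 CPM in Het. In both, Het replicate 3 lay below all WT libraries and the other 2 Het libraries above most of them.

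Nav1.2 works with the other proteins of the axon initial segment, where ankyrin-G (Ank3) and beta-IV spectrin (Sptbn4) hold channels in place. The scaffold genes stood close together in the 2 groups, with -0.02 for Ank3, 0.00 for Sptbn4, -0.03 for Nfasc and 0.05 for Trim46. Of the 17 members 0 passed and 2 were lower without overlap (Cntn1, -0.18, and Fgf12, -0.38), beside 7.3% of all genes, and 1 after median-of-ratios scaling. The median was -0.05. Leaving out WT replicates 1, 2 and 3 in turn gave -0.12, -0.085 and -0.0057, and leaving out Het replicates 1, 2 and 3 gave -0.0051, -0.031 and -0.15. Kcnq3, an M-current subunit gene, was at 167.2, 175.9 and 174.0 CPM in WT and 93.5, 129.1 and 175.6 CPM in Het (-0.42 ± 0.18). Het replicate 3 lay among the WT libraries and the other 2 Het libraries below. Cntnap2, which encodes the node protein CASPR2, was at 21.7, 25.9 and 28.0 CPM in WT and 18.0, 18.9 and 22.3 CPM in Het (-0.34 ± 0.16).

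Potassium and HCN channels, which set the threshold and repolarise the membrane, had a median of -0.16 over 35 members, beside -0.05 for all genes. None passed, and 8 were lower and 1 higher without overlap, beside 7.3 and 3.37% of all genes. After median-of-ratios scaling 5 were lower and 1 higher, beside 5.06 and 5.3%. Kcnd2, which encodes the A-type channel Kv4.2, was at 31.6, 30.3 and 34.9 CPM in WT and 17.1, 22.3 and 29.1 CPM in Het (-0.52 ± 0.17). Kcnq5 was at 90.5, 92.8 and 108.0 CPM in WT and 82.4, 76.1 and 82.0 CPM in Het (-0.27 ± 0.10). Further members are named after their values were seen. Kcnd3 (Kv4.3) gave -0.43. Kcna2 (Kv1.2), an axonal channel gene, was the 1 higher, at 129.6, 125.6 and 124.0 CPM in WT and 156.6, 168.4 and 132.7 CPM in Het (0.26 ± 0.11). The list's median was -0.28 without Het replicate 3, -0.21 within the libraries numbered up to 12 and -0.11 without Het replicate 1. With the mitochondrially encoded mRNAs as a covariate it was -0.07, beside -0.03 for all genes. Calcium channel genes had a median of -0.02 over 18, with 1 higher and 1 lower. The higher one, Cacna1g (the T-type channel Cav3.1), was at 418.0, 382.4 and 328.2 CPM in WT and 448.1, 451.8 and 433.8 CPM in Het (0.25 ± 0.10).

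Genes of presynaptic release had a median of -0.14 over 31 members. None passed, and 7 were lower and 1 higher without overlap, beside 7.3 and 3.37% of all genes. After median-of-ratios scaling 6 were lower and 2 higher, beside 5.06 and 5.3%. With the mitochondrially encoded mRNAs as a covariate the median of the list was -0.07, beside -0.03 for all genes. Within the libraries numbered up to 12 it was -0.18. Syt1, the calcium sensor of fast release, was at 443.0, 500.0 and 455.5 CPM in WT and 382.4, 375.8 and 375.8 CPM in Het, and at 440.4, 433.8 and 366.1 CPM in Het CRISPRa (-0.30 ± 0.09). The 3 Het libraries lay closer together than the WT libraries. Cplx1, which encodes the SNARE regulator complexin 1, was at 48.1, 54.8 and 45.9 CPM in WT and 27.4, 38.0 and 43.5 CPM in Het (-0.47 ± 0.16). Named after their values were seen, the active zone scaffold gene Bsn gave -0.24, and the higher member Unc13a, the Munc13-1 priming factor gene, gave 0.24. Glutamate receptors and scaffolds had a median of -0.03 over 38, with 2 lower without overlap (1 after median-of-ratios scaling), beside 7.3% of all genes, of which Homer2 gave -0.20. Grin3a, an NMDA receptor subunit gene, gave -0.43 ± 0.21 with overlap. GABA receptor genes had a median of -0.06 over 16, with 3 lower without overlap, beside 7.3% of all genes. Gabrg3 was at 20.7, 21.6 and 26.2 CPM in WT and 13.9, 18.7 and 20.05 CPM in Het (-0.38 ± 0.17), and Gabrb2 at -0.43 ± 0.19 with overlap. None of either list passed.

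Genes of autism and other neurodevelopmental disorders, of which Scn2a is a prominent example, had a median of -0.05 over 40, equal to that of all genes to that digit. Leaving out Het replicate 3 gave -0.11, and leaving out WT replicate 3 or Het replicate 1 gave -0.015 and -0.017. None passed, and 3 were lower and 0 higher without overlap, beside 7.3 and 3.37% of all genes, with 2 lower and 1 higher after median-of-ratios scaling. Mbd5, a methyl-CpG-binding domain gene, was at 88.3, 95.7 and 88.9 CPM in WT and 74.4, 81.6 and 73.0 CPM in Het (-0.25 ± 0.11). In Het CRISPRa it was at 79.6 to 103.2 CPM. Every Het library was below every WT library.

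**Figure D5:**
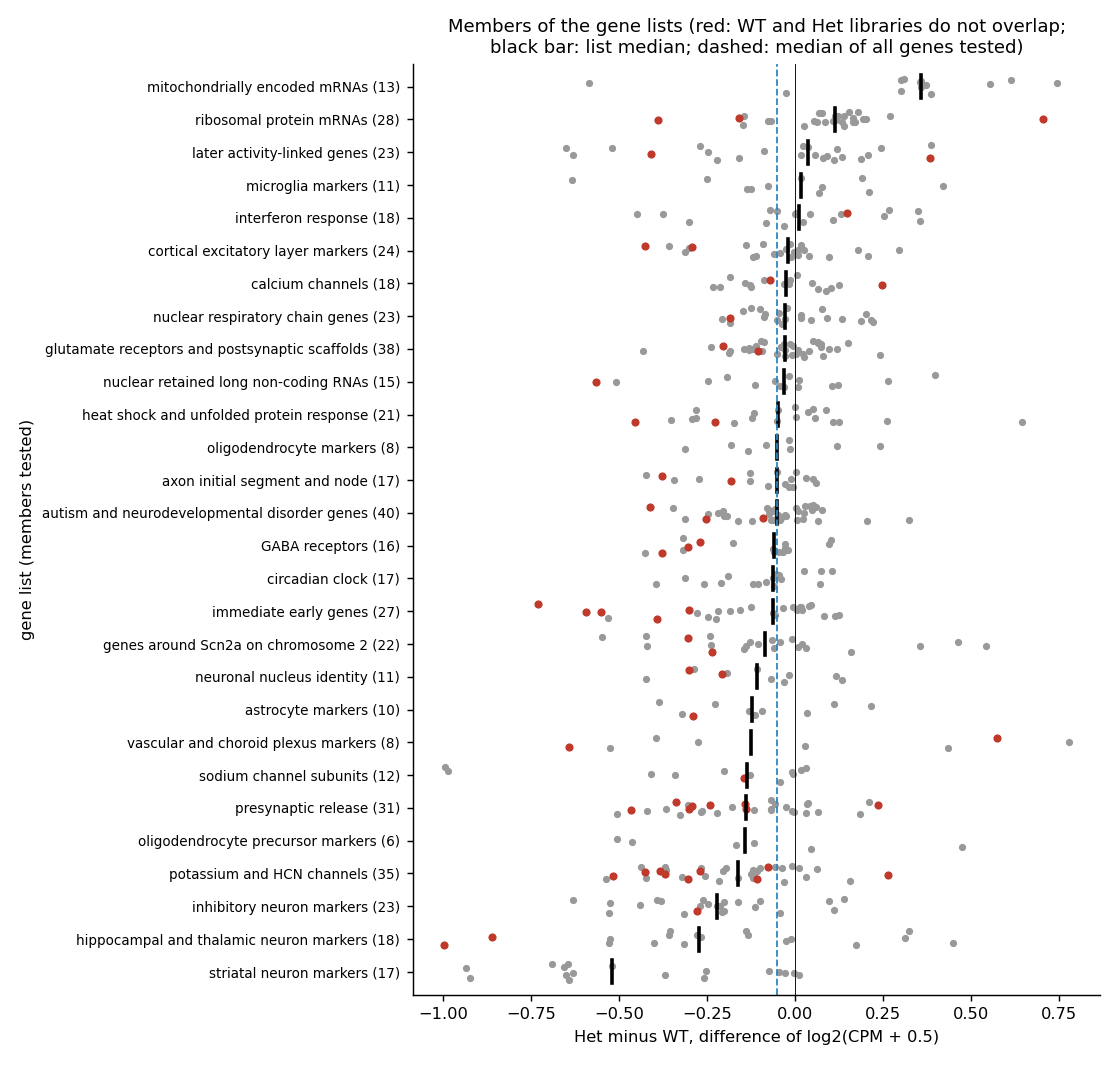
Het minus WT difference of log2(CPM + 0.5) for the tested members of 28 gene lists, with the number tested in parentheses. Each point is 1 gene, red where the WT and Het libraries do not overlap, black bars are list medians and the dashed line is the median of all genes, -0.05. Striatal markers have the lowest median (-0.52) without any red point, and mitochondrially encoded mRNAs the highest (0.36), also without one.

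Markers of the sorted nuclei fitted neurons of both transmitter types and, at low levels, other cells. In bulk libraries, fewer cells of a type and less RNA per cell cannot be told apart. Rbfox3 was at 316.4, 281.7 and 267.0 CPM in WT and 358.1, 305.2 and 288.0 CPM in Het, and Slc17a7, the marker of cortical excitatory neurons, at 895.2, 1001 and 935.0 CPM in WT and 901.4, 918.5 and 925.1 CPM in Het. The 11 neuronal identity genes had a median of -0.11 and the 24 excitatory layer markers one of -0.02, with 2 lower without overlap in each, beside 7.3% of all genes. Etv1, a layer 5 factor gene, was at 39.1, 43.9 and 32.8 CPM in WT and 28.0, 29.9 and 27.5 CPM in Het (-0.43 ± 0.14). Bcl11b (CTIP2), another deep-layer factor gene, gave -0.36 ± 0.17 with overlap, and it also marks striatal neurons.

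Inhibitory markers had a median of -0.22 over 23 and followed single libraries. Without overlap 1 was lower, beside 7.3% of all genes, and 0 after median-of-ratios scaling, beside 5.06%. Gad1 was at 86.8, 86.9 and 110.1 CPM in WT and 59.9, 73.0 and 109.7 CPM in Het, and Gad2 at 35.8, 32.2 and 56.8 CPM in WT and 18.4, 25.6 and 54.4 CPM in Het. Het replicates 1 and 2 were the low libraries and replicate 3 was as high as WT. Reln, a marker of layer 1 and of some interneurons, was at 70.8, 75.5 and 68.6 CPM in WT and 59.9, 51.1 and 66.9 CPM in Het (-0.28 ± 0.11), and Prox1 at 18.5, 16.8 and 16.9 CPM in WT and 9.72, 8.72 and 19.8 CPM in Het. The median of the list was -0.44 within the libraries numbered up to 12, and -0.39, -0.12 and -0.11 when Het replicate 3, WT replicate 1 and Het replicate 1 were left out in turn. With the number of features at 1 read as a covariate it was -0.98.

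Striatal markers had the lowest median of any list, -0.52 over 17, with 16 below 0 and 0 whose groups did not overlap. Drd1, the dopamine D1 receptor gene, was at 11.03, 12.7 and 31.9 CPM in WT and 4.33, 11.9 and 19.1 CPM in Het. Drd2 was at 9.96, 11.05 and 30.5 CPM in WT and 1.78, 13.6 and 30.1 CPM in Het. The low library was Het replicate 1 and the high libraries were replicate 3 of each group. Without Het replicate 1 the median was 0.08 and without WT replicate 3 it was -0.14, so its direction rested on the first of these libraries. The median was -0.81 without Het replicate 3, -0.67 within the libraries numbered up to 12 and -1.47 with the number of features at 1 read as a covariate. It was positive with the level of Xist (0.22) or of the mitochondrially encoded mRNAs (0.24) as a covariate. Hippocampal and thalamic markers had a median of -0.27 over 18, with 2 lower without overlap, beside 7.3% of all genes. It was -0.15 without Het replicate 1 and -0.16 without Het replicate 2. Dsp, a marker of dentate granule cells, was at 5.31, 7.96 and 5.40 CPM in WT and 2.90, 2.24 and 4.68 CPM in Het (-0.86 ± 0.27), and Spink8, at or under 1.52 CPM in every library, gave -0.998 ± 0.36.

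Glial and vascular markers stood at similar summed levels in both groups. The 12 astrocyte markers summed to 277.7 to 315.7 CPM in WT and 266.3 to 321.2 CPM in Het, the 12 oligodendrocyte markers to 105.9 to 128.8 and 107.4 to 123.0 CPM, and the 12 microglia markers to 33.0 to 48.1 and 34.6 to 55.9 CPM. Precursor markers (9) summed to 44.1 to 68.2 CPM in WT and 37.9 to 63.9 CPM in Het, and vascular and choroid plexus markers (17) to 14.4 to 18.2 and 12.8 to 19.7 CPM. Aqp4 and Gfap did not exceed 1.67 and 0.908 CPM, Cldn5 was at or near 0 and Slco1a4 at 0 in all 6 libraries. The list medians were -0.12 for astrocytes, -0.05 for oligodendrocytes, -0.14 for precursors, 0.02 for microglia and -0.12 for vascular and choroid plexus genes, and no member passed. Non-overlapping members were Aldoc (lower, -0.29), Col1a1 (lower, -0.64) and the pericyte gene Pdgfrb, higher at 3.14, 4.30 and 2.98 CPM in Het against 1.73, 2.38 and 2.38 CPM in WT (0.57 ± 0.24). Over all genes 3.37% were higher and 7.3% lower without overlap.

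The 13 mitochondrially encoded mRNAs had the highest median, 0.36, with 11 above 0, none past the test and none without overlap. mt-Atp6, which encodes a subunit of the proton channel of ATP synthase, was at 645.0, 875.0 and 652.6 CPM in WT and 1480.7, 1371.0 and 851.5 CPM in Het (0.74 ± 0.19). mt-Co1, of cytochrome oxidase, was at 3031, 3627 and 2260 CPM in WT and 5452, 3807 and 2523 CPM in Het (0.36 ± 0.23), and mt-Nd3 had the opposite sign (-0.59 ± 0.43). In summed level Het replicate 1 was the highest library and replicate 3 the lowest of each group. For mt-Atp6 the lowest WT library was replicate 1. Leaving out Het replicate 1 or WT replicate 3 gave medians of 0.11 and 0.13, and leaving out Het replicate 3 gave 0.64. Het CRISPRa libraries were at the low end of the WT range or below it in summed level, 6997, 7478 and 7922 CPM against 7412 to 11724 CPM in WT and 8524 to 17693 CPM in Het. Nuclear genes of the respiratory chain had a median of -0.03 over 23 and 0 past the test. Ndufv1, of complex I, gave 0.22 and Uqcrc1, of complex III, gave 0.20, both with overlap.

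Ribosomal protein mRNAs had a median of 0.11 over 28, with 22 above 0, 0 past the test, and 1 higher and 2 lower without overlap, beside 3.37 and 7.3% of all genes. That median was -0.05 without Het replicate 1 and -0.03 without WT replicate 3, and 0.22 with Het replicate 3 left out and 0.20 with WT replicate 1 left out. Rps24 was lower, at 64.1, 65.5 and 68.3 CPM in WT and 51.0, 48.9 and 50.8 CPM in Het (-0.39 ± 0.12), with tight groups, and Rpl15 stood on the other side. Nuclear-retained long non-coding RNAs had a median of -0.03 over 15. Malat1, the nuclear speckle RNA, was at 2667, 2092 and 3471 CPM in WT and 1553, 2008 and 1909 CPM in Het (-0.57 ± 0.19), the 1 member lower without overlap, by a margin small beside the WT spread. Miat gave -0.19 ± 0.10 with overlap.

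Stress, immune and clock lists had medians near that of all genes. Heat shock and unfolded protein response genes had a median of -0.05 over 21, with 2 lower without overlap, beside 7.3% of all genes (2 lower and 1 higher after median-of-ratios scaling). Dnajb1, an HSP70 co-chaperone gene, was at 21.9, 24.6 and 19.2 CPM in WT and 13.8, 17.9 and 16.02 CPM in Het (-0.45 ± 0.15), and Hspa8, the constitutive HSP70, gave -0.29 ± 0.15 with overlap. Interferon response genes had a median of 0.01 over 18 tested of 30 listed, with 1 higher without overlap, H2-D1 (0.15), beside 3.37% of all genes, and Cxcl10 at 0 in all 6 libraries. Circadian clock genes had a median of -0.06 over 17 and none without overlap. Bhlhe40 gave -0.39 ± 0.18 and Cry2 -0.19 ± 0.10, and the labels do not give the hour of sampling. No member of these lists passed.

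The non-overlapping share also differed between classes of genes. Among 914 protein-coding genes that span over 200 kb in GENCODE M21, 1.53% were higher and 8.86% lower in Het, with a median of -0.09 (-0.05 without Het replicate 1), while among 1505 protein-coding genes under 5 kb 3.46% were higher and 5.45% lower, with a median of -0.01. After median-of-ratios scaling these shares were 3.39 and 6.24% for the long and 5.85 and 3.59% for the short genes. Among the 2386 genes of any type above a mean of 100 CPM, 5.74% were higher and 3.98% lower, and 11.1 and 1.63% after median-of-ratios scaling, against 5.3 and 5.06% of all genes. Many channel and synaptic genes named above are long, and the part of gene length in their lists was not tested. The scaling moves list medians as well. After median-of-ratios scaling the medians of the axon initial segment, calcium channel, glutamate receptor, layer marker, nuclear respiratory chain, non-coding RNA and stress lists, all at -0.05 or nearer to 0, turned positive (0.00 to 0.03).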

How the data were processed

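The authors deposited a table of CPM for the 9 mouse libraries, each summing to 1e+06, per the file headers. Per the submitters' processing notes the tools were R 4.4, DESeq2 1.44, featureCounts and STAR 2.7.8a and the builds GRCm39 and mm39, with no roles given. Annotation release, strandedness and the handling of reads with several alignments are not given in the sources used here. The authors' deposited DESeq2 table of WT and Het gives a log2 fold change with its SE, a p-value and an adjusted p-value. Its mean normalized level over samples (a signal) and its test statistic (a score), both deposited by the authors, were not used. Its sign was opposite to the CPM in 144 of 144 genes with a ratio past 2-fold and was turned to Het minus WT. It is used only where named.

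The value of 1 read was taken as the most frequent CPM above 0, and depth as its inverse. At that scale 79.9 to 82.4% of values were within 0.01 of whole reads, so the values are not whole counts and no count model was run.

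Differences were fitted with limma 3.58.1 in R 4.3.3 (lmFit, eBayes with trend) on log2(CPM + 0.5), with the 9 mouse libraries in 1 fit, for genes that reached 0.5 CPM in 3 or more libraries. The 2 transgene features were left out. Python 3.11.15 with pandas 2.3.3, numpy 2.4.6, scipy 1.17.1 and matplotlib 3.10.9 did the rest. The fit was tested on simulated data.

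Samples were grouped by the genotype and treatment labels. The comparison, the 29 gene lists (one of sex-linked genes is a check only) and the rules were chosen with earlier results of these data known. Named are all tested sodium channel genes, 10 genes a direction with the smallest p (mean of at least 2 CPM, no overlap, an established symbol), up to 5 a direction from the authors' deposited table, and up to 2 per list with the smallest p. Some genes that the rule names are not reported here. Gene types, containment and neighbours came from GENCODE M21 (GRCm38), in which 17150 tested genes (90.4%) have an entry, and since the files use GRCm39 no gene coordinates are given. The 21 alternatives cover pseudocount, filter, scaling, libraries, weights, covariates and a replicate block.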

Additional observations from a re-analysis of the deposited data

Results flagged for a closer look

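A signal appeared in features outside the comparison of WT and Het. The transgene feature sadCas9Vp64 stood at a mean of 5.21 CPM (4.09 to 7.12) in the 3 Het CRISPRa libraries and McherryPuro at a mean of 1.63 CPM (1.45 to 1.84), while both were at 0 in all 6 WT and Het libraries, which follows the treatment labels.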

How the results depend on the processing

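No gene passed by limma in the reported fit, with 951 genes at an unadjusted p under 0.05. With the replicate block, which matches WT and Het libraries of the same number, 2 genes passed (Gm37999 and A230103L15Rik), both at an adjusted p of 0.0169. The deviations of same-numbered libraries from their group means correlated at 0.337, 0.0339 and 0.418, and WT replicate 2 correlated best with Het replicate 1 (0.217), so the numbers were not taken to pair the mice. The count past the threshold was 2192 with arrayWeights, whose estimation stopped before convergence, 411 with its gene-by-gene method, 1 with Xist as a covariate (Atp6-ps), 2 with the mitochondrially encoded mRNAs as a covariate (Atp6-ps and ENSMUSG00000136525), 1 with the library number as a term, 5 within the libraries numbered up to 12, and 0 to 1 without each replicate in turn (ENSMUSG00000124611 without Het replicate 1). Pseudocounts, filters, scalings, the number of features at 1 read as a covariate and the 6 libraries alone left it at 0. Weights, library number and features at 1 read were chosen after seeing the data. The count at an unadjusted p under 0.05 was 1996 without a filter, 5517 and 4028 with the weights, 1828 with the features at 1 read, 2335 within the libraries numbered up to 12, and 631 (without WT replicate 2) to 2647 (without Het replicate 3). Without overlap, 1006 genes were higher after median-of-ratios scaling and 922 lower after quantile scaling. The cause of these shifts was not tested. The Scn2a difference kept its sign under every alternative, from -0.32 to -0.02, and did not pass in any. Of the list medians, 30 values in 21 lists moved by more than the spread between libraries.

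The sign of small differences changed in 9 of the 91 named genes, 33 values in all, none of which passed. With median-of-ratios scaling Scn8a became 0.044, Scn1a 0.042 and Scn9a 0.0054, and with quantile scaling Scn9a 0.025. With features at 1 read Scn8a became 0.019, Scn3a -0.074, Cnp 0.092, Ifih1 -0.21 and Hspa8 0.29. With Xist Scn1a became 0.036, Scn9a 0.31 and Scn10a -0.088, and with mitochondrial mRNAs Scn1a 0.051, Scn9a 0.47, Scn10a -0.10 and Scn11a 0.0055. Scn1a became 0.041 with arrayWeights, 0.044 with its gene-by-gene method and 0.079 within the libraries numbered up to 12. Without single replicates Scn8a ran from -0.073 to 0.043, Scn1a from -0.080 to 0.096, Scn3a from -0.052 to 0.17, Scn9a from -0.44 to 0.27 and Scn10a from -0.25 to 0.17.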
